A study of Mus musculus with 48 samples.

Results

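Glycolysis and pyruvate metabolism were followed through 36 genes that cover the route from glucose uptake to the mitochondrial entry of pyruvate, from among the 24264 transcripts counted. The rule that selects them uses names and no measured value, although they were chosen with earlier results of these data known. All 36 passed the filter on low counts that left 15630 genes for testing. They comprise the glucose transporters (*Slc2a1*, *Slc2a3*, and *Slc2a4*), hexokinases and glucose phosphate isomerase (*Hk1*, *Hk2*, and *Gpi1*), phosphofructokinase subunits (*Pfkl*, *Pfkm*, and *Pfkp*), and the *Pfkfb* family that makes and breaks the allosteric activator of phosphofructokinase (*Pfkfb1*, *Pfkfb2*, *Pfkfb3*, and *Pfkfb4*). The lower part of the route comprises aldolases and triose phosphate isomerase (*Aldoa*, *Aldoc*, and *Tpi1*), the enzymes from glyceraldehyde phosphate to phosphoenolpyruvate (*Gapdh*, *Pgk1*, *Pgam1*, *Bpgm*, *Eno1*, *Eno2*, and *Eno3*), and lactate dehydrogenases with lactate carriers (*Ldha*, *Ldhb*, *Slc16a1*, and *Slc16a3*). Pyruvate entry is represented by pyruvate dehydrogenase subunits (*Pdha1*, *Pdhb*, and *Dlat*) and the kinases that inactivate them (*Pdk1*, *Pdk2*, *Pdk3*, and *Pdk4*), together with the oxygen-responsive regulator *Hif1a* and the mitochondrial carrier *Ucp2*.

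Glycolysis splits glucose into pyruvate in the cytosol. Pyruvate is then either reduced to lactate and exported, or carried into mitochondria and oxidized by the pyruvate dehydrogenase complex, which PDH kinases switch off by phosphorylation. Several steps are shared out among isoenzymes that differ in tissue distribution and kinetics, and pluripotent cells are known for a high glycolytic rate compared with fibroblasts.

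RNA was measured in 48 libraries of 20 conditions by single-cell tagged reverse transcription (STRT) applied to bulk samples, a method that counts the 5′ ends of transcripts, so that read number does not scale with transcript length. Mouse embryonic fibroblasts (MEFs) were wild type (WT) or derived from chimeric embryos made with TNG MKOS or TNG OKMS embryonic stem cells (ESCs). These ESCs carried a *Nanog*-GFP reporter and, targeted into *Sp3*, a doxycycline-inducible polycistronic cassette with *c-Myc*, *Klf4*, *Oct4*, and *Sox2* in the order MKOS or OKMS, and the OKMS cassette encodes a shorter form of Klf4. Reprogramming cultures, in which transgenic MEFs were mixed with an excess of WT MEFs, received doxycycline and vitamin C. Intermediates were sorted as E-CADHERIN positive or negative (E-CAD+ or E-CAD-), CD44 low and ICAM1 low (gate 2) or ICAM1 high (gate 3), and *Nanog*-GFP negative or positive (NG- or NG+). The day of sorting is given as 10 in the design text, whereas the growth protocol leaves it open. The 8 sorted conditions with 3 libraries each were MKOS E-CAD+ 2NG-, 3NG-, and 3NG+, OKMS E-CAD+ 2NG-, 3NG-, and 3NG+, and OKMS E-CAD- 2NG- and 3NG-. The 12 conditions with 2 libraries each were the MEFs of the 3 genotypes (WT, MKOS, OKMS), ESCs of 4 lines (the parental E14 and TNG, then TNG MKOS as well as TNG OKMS), established MKOS and OKMS induced pluripotent stem cell (iPSC) clones without doxycycline (-dox) and in 2i medium, which inhibits MEK and GSK3, and the iPSC line D6, which has a single piggyBac MKOS insertion. By the study's methods, MEFs were grown with FGF2 and heparin, whereas reprogramming cultures, ESCs, and iPSCs were grown in medium with leukemia inhibitory factor. MEFs and sorted cells therefore differed in doxycycline, vitamin C, and medium as well as in gate, and no group isolates 1 of these. ESCs and MEFs differed in medium too.

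Libraries held 1429717 to 14174725 reads on transcripts (median 6243254.5), the lowest being OKMS E-CAD+ 3NG+ replicate 2, and levels are given as CPM, the count scaled to a common total of transcript reads per library, with 3 reads equal to 0.212 to 2.10 CPM depending on the library. The labels do not say that replicates were separate cultures, so the tests measure the spread between these libraries, which may be technical. The tests of single genes use the spread within conditions, so differences among ESC lines or MEF genotypes do not enter their error. The SDs given for ESCs and MEFs include those differences. Fibroblast markers (10 of 10 in the table) summed to 3169 to 5414 CPM in MEFs, 407 to 1009 CPM in MKOS NG- cells, 81.6 to 301 CPM in OKMS E-CAD+ NG- cells, 572 to 916 CPM in OKMS E-CAD- cells, and 8.27 to 12.9 CPM in ESCs, where *Twist2* was at 0. Pluripotency markers (8 of 8) summed to 10602 to 17865 CPM in ESCs and 2.57 to 11.5 CPM in MEFs, with *Nanog* and *Utf1* at 0 in all 6 MEF libraries. The sorted populations thus retained fibroblast transcripts to unequal degrees, and the part of these in any result on sorted cells was not tested. The averages that the study supplies for sorted populations leave out 7 of the sorted libraries (replicate 3 of both NG- gates of MKOS, of OKMS E-CAD+, and of OKMS E-CAD-, and replicate 2 of OKMS 3NG+). All 48 libraries were used here, and values without those 7 are given where a call changed.

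Some members cannot be read as single genes. The row named *Eno1* held 2237 reads over all libraries, whereas a second row at the same locus, named *Gm5506_loc2* and placed 127 bases downstream, held 764596 reads, none of them unique to it. *Gm5506_loc2* ranged from 866 to 3910.1 CPM and *Eno1* from 0.222 to 17.8 CPM, so the *Eno1* row holds a small part of the reads assigned to this locus, and its results are uncertain. Unique reads made up only 3.05% of *Pgam1*, 32.1% of *Pgk1*, 47.8% of *Pdhb*, and 63.2% of *Gpi1* reads, and reads shared with other copies could have moved between rows in these genes. In the other 32 members at least 90.2% of the reads were unique.

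Promoter windows are shown for 7 members on which the results turn, because c-Myc, a factor in both cassettes, binds the E-box CACGTG, and Hif1a, itself a member, binds the core ACGTG as well as the core GCGTG. Each window runs from 250 bases before to 50 bases after a RefSeq transcription start (GRCm38.p6), and 34 of the 36 members had such a window in the RefSeq table. For plus-strand genes, the start nearest to the position given with the counts was taken, which can lie downstream of the GRCm38 gene start. For minus-strand genes, the start nearest to the gene's GRCm38 end coordinate was taken. The windows lie at chr4:119108495-119108794, plus strand (*Slc2a1*), chr10:62379859-62380158, minus strand (*Hk1*), chr13:6648722-6649021, minus strand (*Pfkp*), chr7:46845554-46845853, plus strand (*Ldha*), chr6:142507908-142508207, minus strand (*Ldhb*), chr2:71872974-71873273, plus strand (*Pdk1*), and chr12:73907617-73907916, plus strand (*Hif1a*). They are written 5′ to 3′ on the strand of the gene, with ACGTG and, likewise, GCGTG in capitals wherever either occurs on either strand (CACGT or, for the latter, CACGC when read along the printed strand).

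*Slc2a1*: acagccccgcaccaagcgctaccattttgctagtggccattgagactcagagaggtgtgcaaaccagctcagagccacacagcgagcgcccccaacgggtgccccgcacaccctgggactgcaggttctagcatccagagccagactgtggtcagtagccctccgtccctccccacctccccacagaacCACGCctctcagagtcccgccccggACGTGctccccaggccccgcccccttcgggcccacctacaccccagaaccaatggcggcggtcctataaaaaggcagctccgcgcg
*Hk1*: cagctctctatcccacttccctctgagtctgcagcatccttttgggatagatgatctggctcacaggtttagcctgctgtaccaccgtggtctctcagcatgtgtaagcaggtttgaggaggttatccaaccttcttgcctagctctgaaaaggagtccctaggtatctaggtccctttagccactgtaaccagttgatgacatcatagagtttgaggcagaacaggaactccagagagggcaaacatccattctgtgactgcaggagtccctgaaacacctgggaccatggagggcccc
*Pfkp*: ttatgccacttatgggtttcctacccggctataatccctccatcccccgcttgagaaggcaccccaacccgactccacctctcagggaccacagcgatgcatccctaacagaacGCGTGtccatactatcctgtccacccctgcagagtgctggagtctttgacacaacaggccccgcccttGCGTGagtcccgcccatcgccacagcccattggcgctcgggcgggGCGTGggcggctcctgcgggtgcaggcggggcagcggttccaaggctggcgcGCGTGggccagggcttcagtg
*Ldha*: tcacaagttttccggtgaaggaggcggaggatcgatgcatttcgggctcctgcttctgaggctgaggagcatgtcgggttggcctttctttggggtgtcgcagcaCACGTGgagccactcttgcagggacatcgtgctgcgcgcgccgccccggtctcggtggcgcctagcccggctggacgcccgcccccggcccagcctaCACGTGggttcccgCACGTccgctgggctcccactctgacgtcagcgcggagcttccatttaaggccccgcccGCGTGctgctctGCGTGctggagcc
*Ldhb*: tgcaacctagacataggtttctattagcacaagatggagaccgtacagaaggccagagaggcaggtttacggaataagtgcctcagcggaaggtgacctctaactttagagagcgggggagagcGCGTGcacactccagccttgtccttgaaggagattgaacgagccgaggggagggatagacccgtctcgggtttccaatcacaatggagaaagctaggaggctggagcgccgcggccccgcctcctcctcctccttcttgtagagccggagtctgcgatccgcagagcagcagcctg
*Pdk1*: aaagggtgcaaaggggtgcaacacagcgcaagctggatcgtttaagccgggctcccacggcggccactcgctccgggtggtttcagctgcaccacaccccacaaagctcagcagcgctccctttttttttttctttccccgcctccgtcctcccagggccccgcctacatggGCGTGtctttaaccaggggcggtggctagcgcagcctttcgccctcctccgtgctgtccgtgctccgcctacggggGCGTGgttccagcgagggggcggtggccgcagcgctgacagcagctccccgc
*Hif1a*: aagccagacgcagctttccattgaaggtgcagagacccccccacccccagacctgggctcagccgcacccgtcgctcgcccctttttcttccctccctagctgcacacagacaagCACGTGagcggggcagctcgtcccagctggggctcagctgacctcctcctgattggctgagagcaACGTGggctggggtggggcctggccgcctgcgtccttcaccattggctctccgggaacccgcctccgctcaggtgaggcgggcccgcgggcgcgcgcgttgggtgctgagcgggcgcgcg

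The 2 lactate dehydrogenase promoters differed in these letters. The *Ldha* window held 5 ACGTG and 2 GCGTG positions counted over both strands, with 2 CACGTG, each of which counts as ACGTG on both strands, and the *Ldhb* window held 1 GCGTG only. The *Hk1* window held neither core, although a second RefSeq start of *Hk1*, 39499 bases from the gene's start, had 2 ACGTG and 3 GCGTG positions in its window. *Pfkp* held 4 GCGTG, *Pdk1* held 2 GCGTG, *Slc2a1* held 1 of each, and *Hif1a* held 3 ACGTG positions including 1 CACGTG. Over all 34 members with a window, 26 (76.5%) held ACGTG or GCGTG and 5 held CACGTG, whereas among 32851 mouse promoters of the same length 43.8% held ACGTG or GCGTG, 19.6% ACGTG, 32.4% GCGTG, and 7.15% CACGTG. Median GC content was 62% in the members' windows and 52.7% in all promoters, which moves with such counts. A match is a description of the sequence, and binding was not measured.

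The 36 genes spanned a wide range of levels. *Gapdh* was the most abundant in every library (2450.3 to 8336 CPM, median 4798), followed at the median by *Ldha* (771 to 3425 CPM, median 1961), *Aldoa* (455 to 2524 CPM, median 1030.4), *Tpi1* (320.2 to 1890.2 CPM, median 901), and *Pgk1* (296 to 3664 CPM, median 611). At the other end, *Slc2a4*, the insulin-responsive glucose transporter, never exceeded 4.65 CPM and was at 0 in 13 of 48 libraries. *Pfkfb1*, *Pfkfb4*, *Pdk2*, *Pdk4*, and *Eno2* had medians of 1.84, 1.44, 2.04, 2.10, and 2.40 CPM, a few times the 3-read floor at best, and each was at 0 in at least 4 libraries. *Pfkfb2* and *Pfkfb3* were each at 0 in 1 library, and the other 28 members were detected in all 48. Together the 36 genes took 0.717% to 2.39% of transcript reads, with 1.16% ± 0.354 in MEFs (SD, n = 6), 0.978% ± 0.0899 in MKOS sorted cells (n = 9), 1.29% ± 0.179 in OKMS E-CAD+ cells (n = 9), 1.05% ± 0.128 in OKMS E-CAD- cells (n = 6), and 1.52% ± 0.277 in ESCs (n = 8). The MEF mean hides a split by genotype, with 1.58% in WT, 0.837% in MKOS, and 1.07% in OKMS MEFs (n = 2 each). WT MEFs were thus near ESCs, and MKOS sorted cells were above MKOS MEFs in the mean.

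**Figure D1:**
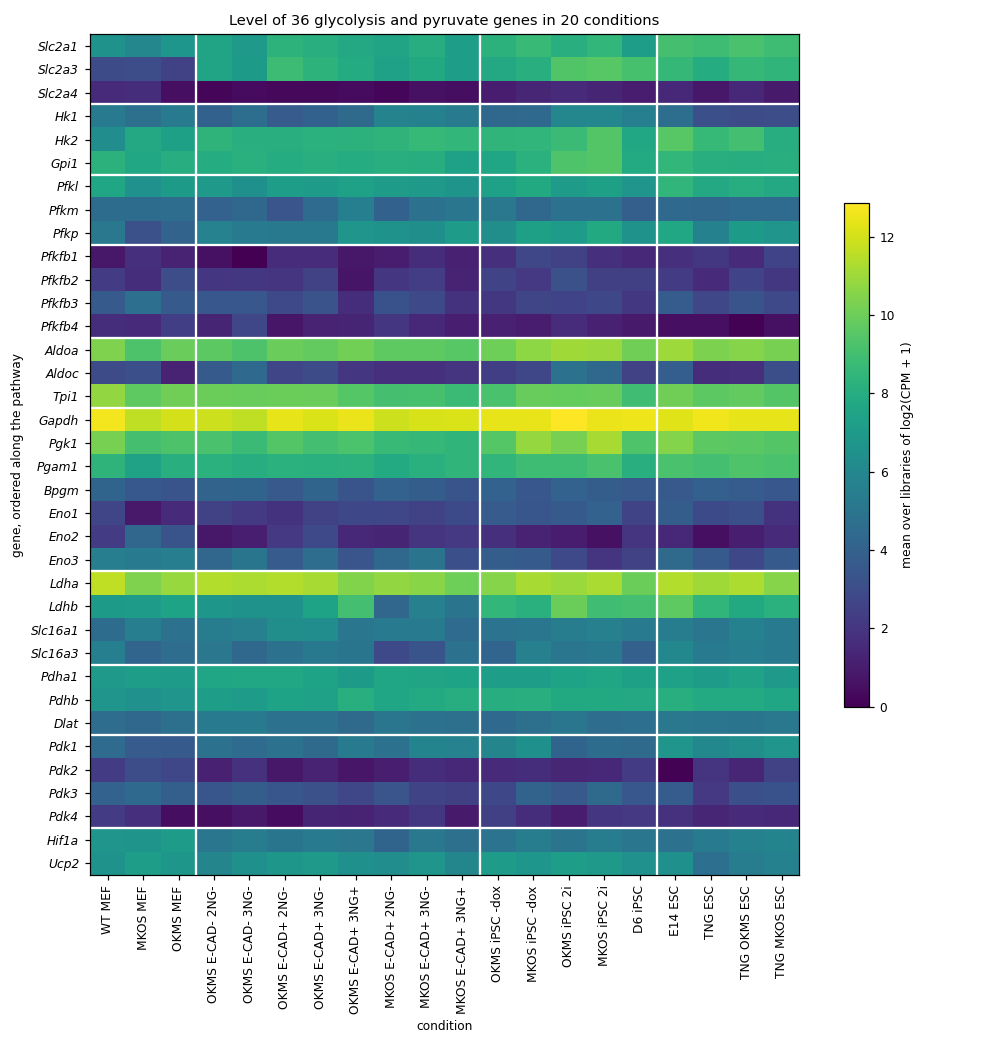
Heat map of the 36 genes (rows, ordered along the pathway) in the 20 conditions (columns), colored by the mean over libraries of log2(CPM + 1). *Slc2a3* is dark in the 3 MEF conditions (3.90 to 10.2 CPM per library) and brighter elsewhere, whereas *Slc2a4* and most *Pfkfb* rows stay near 0 throughout.

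ESCs and MEFs, the end points of reprogramming, differed in 21 of the 36 genes, 13 higher and 8 lower in ESCs (edgeR quasi-likelihood test, threshold of 0.05 on the false discovery rate, FDR, over all genes). This was 58.3% of the 36 where 60.1% of all genes tested passed, 29.6% higher and 30.4% lower, so as a set they changed about as often as genes in general. Their median log2 fold change was 0.24, with 0 over all genes. In every ESC library against every MEF library, 6 of the 36 were higher and 2 lower, where 33.3% of all genes did not overlap. The test uses the spread within conditions only, so differences among ESC lines or MEF genotypes do not enter its error.

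The largest log2 fold change among the 36 genes was in glucose uptake. *Slc2a3*, the high-affinity glucose transporter of neurons and early embryos, ranged from 3.90 to 10.2 CPM (median 6.01) in MEFs and from 229 to 468 CPM (median 350.3) in ESCs, without overlap. It was 56.5-fold higher in ESCs (log2 fold change 5.82, SE 0.23, FDR = 3.4e-23). *Slc2a1*, the widely expressed basal glucose transporter, was also higher in every ESC library, with 513 ± 71.1 CPM (SD, n = 8) against 88.3 ± 22.99 CPM (SD, n = 6) (log2 fold change 2.60, SE 0.23, FDR = 6.7e-13). *Slc2a4* stayed at trace level in both groups.

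The hexokinases changed in opposite directions. *Hk2*, the inducible hexokinase, was at 157 to 834 CPM (median 464) in ESCs and at 74.1 to 237 CPM (median 159.6) in MEFs, with a log2 fold change of 1.76, FDR = 9.2e-12. *Hk1*, the housekeeping hexokinase, was at 4.21 to 29.6 CPM (median 8.84) in ESCs and at 17.1 to 60.6 CPM (median 35.5) in MEFs, and its log2 fold change was -1.80, FDR = 2.3e-08. The ranges of both genes overlapped between the groups. Among phosphofructokinase subunits, *Pfkp*, the platelet type, was at 126 ± 67.4 CPM (SD, n = 8) against 19.7 ± 12.6 CPM (SD, n = 6) (log2 fold change 2.74, SE 0.29, FDR = 1.4e-10), and *Pfkl*, the liver type, rose by 1.03 (FDR = 5.4e-06), while *Pfkm*, the muscle type, did not pass (-0.11, FDR = 0.81). *Pfkfb4* was lower in ESCs, with 0 to 1.16 CPM against 1.02 to 5.27 CPM (-3.05, FDR = 0.0045), and the other *Pfkfb* genes and *Gpi1* did not pass.

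In the lower part of the route, 3 of the 10 genes rose and 2 fell. *Aldoa* rose by 0.69 (FDR = 0.0033) and *Pgam1* by 1.25 (FDR = 3.8e-11), whereas *Gapdh* (0.39, FDR = 0.064), *Pgk1* (0.28, FDR = 0.15), *Tpi1* (-0.35, FDR = 0.15), *Bpgm* (0.05, FDR = 0.96), and *Aldoc* (0.12, FDR = 0.91) did not pass. *Eno3* and *Eno2*, the muscle and neuronal enolases, were lower in ESCs (-1.87, FDR = 1.5e-06, and -2.94, FDR = 0.00083). The *Eno1* row was higher (1.55, FDR = 0.0035), and so was the *Gm5506_loc2* row at its locus (1.07, FDR = 1.7e-07), which went from 1603 ± 635 CPM in MEFs (SD, n = 6) to 3103 ± 599.6 CPM in ESCs (n = 8). By genotype, its MEF means were 2373 CPM in WT, 992 CPM in MKOS, and 1446 CPM in OKMS MEFs (n = 2 each).

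At the pyruvate branch, *Ldhb*, the subunit that favors lactate oxidation, was at 459 ± 290.0 CPM (SD, n = 8) in ESCs and 145 ± 24.4 CPM (SD, n = 6) in MEFs (log2 fold change 1.53, SE 0.33, FDR = 0.00010), while *Ldha*, the subunit that favors lactate formation, did not pass (0.20, FDR = 0.46). The ESC libraries ranged from 158 to 882 CPM for *Ldhb*, and all were above the MEF median of 139 CPM. *Pdhb*, the beta subunit of the dehydrogenase component, and *Dlat*, its acetyltransferase, rose (1.27, FDR = 4.6e-10, and 0.59, FDR = 0.0068), and *Pdha1*, the alpha subunit, did not pass (0.17, FDR = 0.25). The PDH kinases split. *Pdk1* was at 57.6 to 184 CPM (median 82.3) in ESCs and 8.35 to 23.8 CPM (median 14.8) in MEFs, again without overlap (log2 fold change 2.62, SE 0.27, FDR = 5.0e-11), whereas *Pdk2* (-2.13, FDR = 0.010) and *Pdk3* (-1.15, FDR = 0.00014) fell and *Pdk4* did not pass (0.38, FDR = 0.76). *Slc16a3*, a lactate exporter, rose by 0.81 (FDR = 0.029), and *Slc16a1* did not pass (0.45, FDR = 0.14).

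*Hif1a* was lower in ESCs, with 25.3 to 67.9 CPM (median 40.7) against 86.4 to 158 CPM (median 109) (log2 fold change -1.39, SE 0.22, FDR = 5.4e-07), and no ESC library reached the lowest MEF library. *Ucp2*, an inner-membrane carrier, fell as well (-1.24, FDR = 3.1e-07). Of the 21 calls, that of *Dlat* was lost without TNG MKOS ESC replicate 2 (FDR = 0.077), and that of *Slc16a3* without MKOS MEF replicate 1, OKMS MEF replicates 1 or 2, TNG MKOS ESC replicate 1, or WT MEF replicate 1 (FDR between 0.056 and 0.084) as well as with DESeq2 (adjusted p = 0.081).

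**Figure D2:**
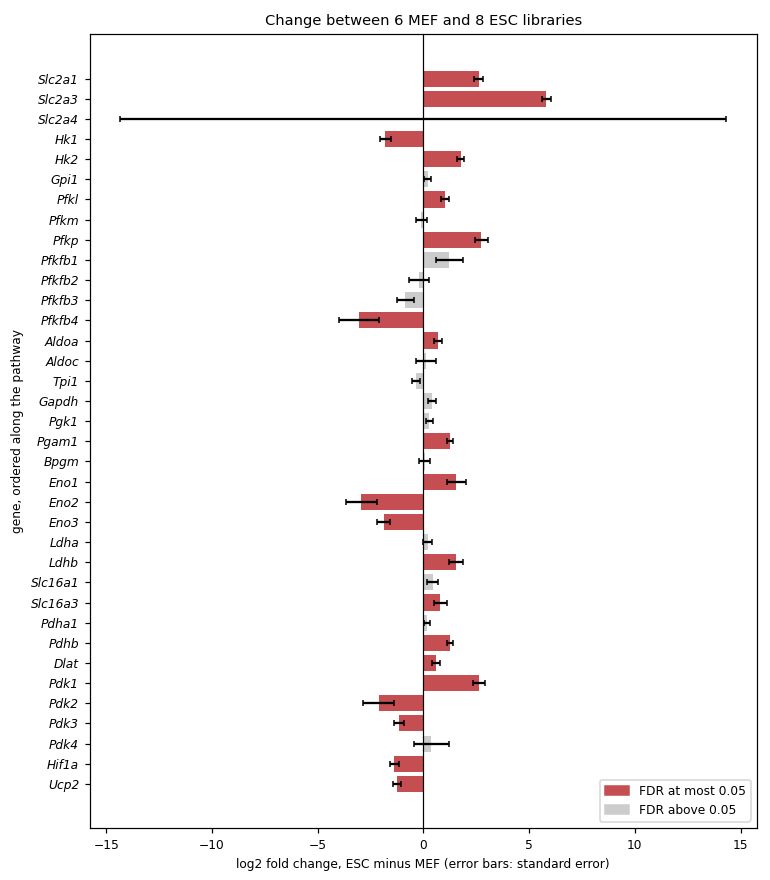
Log2 fold change between 8 ESC and 6 MEF libraries for each of the 36 genes (bars) with its standard error (lines), ordered along the pathway, with red bars for genes at an FDR of at most 0.05. *Slc2a3* stands out at 5.82, and *Hk1*/*Hk2* and *Pdk1*/*Pdk2* point in opposite directions.

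Ratios between isoenzymes need no scaling to library size and were compared by exact two-sided permutation over the 8 ESC and 6 MEF libraries, with adjustment over 9 pairs. Because 1 read was added to each count, ratios of genes with few reads, here those with *Eno1*, *Eno2*, or *Aldoc*, still depend on depth. The permutation takes the libraries as independent, although they came from 4 ESC lines and 3 MEF genotypes with 2 libraries each. Whole lines and genotypes were not shuffled, so the p-values do not measure the spread between lines. The *Hk2* share of *Hk1* plus *Hk2* reads was 97.4% ± 1.93 in ESCs (SD, n = 8) and 78.4% ± 11.8 in MEFs (n = 6), and the *Hk2* to *Hk1* ratio differed by 3.45 log2 units (exact p = 0.00067, adjusted p = 0.0020). The *Slc2a3* share of *Slc2a1* plus *Slc2a3* reads was 39.97% ± 7.47 in ESCs and 7.41% ± 4.69 in MEFs, a difference of 3.20 log2 units (exact p = 0.00033, adjusted p = 0.0015), the smallest p that the 3003 arrangements allow. The *Pfkp* share of *Pfkp* plus *Pfkl* reads was 30.5% ± 9.33 and 11.8% ± 3.65, a difference of 1.71 log2 units (exact p = 0.0013, adjusted p = 0.0030), and the *Pfkm* to *Pfkl* ratio changed by -1.14 log2 units (exact p = 0.0017, adjusted p = 0.0030).

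The enolase ratios changed by -4.57 log2 units (exact p = 0.0020, adjusted p = 0.0030) for *Eno2* to *Eno1* and -3.48 log2 units (exact p = 0.00033, adjusted p = 0.0015) for *Eno3* to *Eno1*. With *Gm5506_loc2* added to *Eno1*, an alternative chosen after seeing the data, they were -3.99 and -2.90 log2 units and passed as well. The *Ldhb* to *Ldha* ratio differed by 1.30 log2 units (exact p = 0.040, adjusted p = 0.051), which did not pass after adjustment, and the *Slc16a3* to *Slc16a1* and *Aldoc* to *Aldoa* ratios did not pass (adjusted p = 0.46 and 0.61).

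The sorted 2NG- cells were compared with MEFs of the same cassette to see which of these changes were already present at the CD44 low ICAM1 low stage. In MKOS cells 11 genes passed, 6 higher and 5 lower, or 30.6% of the 36 where 27% of all genes passed, 15% higher and 12% lower. In OKMS E-CAD+ cells 11 passed, 8 higher and 3 lower (30.6% of the 36), where 29.2% of all genes did. In OKMS E-CAD- cells 8 passed, 4 in each direction (22.2% of the 36, and 21.8% of all genes, 11.7% higher and 10.1% lower). Both OKMS comparisons share the OKMS MEF libraries. In bulk samples like these, fewer cells of a type and less RNA per cell cannot be told apart.

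*Slc2a3* rose in all 3 sorted populations. It was at 4.91 and 10.2 CPM in MKOS MEFs and 132, 155, and 226 CPM in MKOS 2NG- cells (log2 fold change 4.52, SE 0.38, FDR = 8.0e-12). It was at 3.90 and 5.61 CPM in OKMS MEFs, 385, 507, and 453 CPM in OKMS E-CAD+ 2NG- cells (log2 fold change 6.66, SE 0.42, FDR = 2.0e-15), and 164, 210.1, and 179 CPM in OKMS E-CAD- 2NG- cells (log2 fold change 5.23, SE 0.39, FDR = 7.6e-13). The OKMS E-CAD+ values lie within the ESC range of 229 to 468 CPM or above it, and the MKOS and OKMS E-CAD- values lie below it. *Slc2a1* rose in both E-CAD+ populations. It went from 72.8 and 51.2 CPM to 201, 126, and 242 CPM with MKOS (1.56, FDR = 0.0015) and from 114 and 105 CPM to 233, 330.4, and 417 CPM with OKMS (1.69, FDR = 0.00056), and in E-CAD- cells it was at 106, 189, and 315 CPM and did not pass (0.83, FDR = 0.098).

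*Hif1a* fell in each population and its libraries did not overlap with those of MEFs. It was at 97.7 and 103 CPM in MKOS MEFs and 25.9, 12.7, and 14.9 CPM in MKOS 2NG- cells (log2 fold change -2.52, SE 0.37, FDR = 1.5e-06). In OKMS MEFs it was at 115 and 158 CPM, against 39.5, 17.4, and 42.9 CPM in E-CAD+ (-1.88, FDR = 0.00010) and 49.7, 14.1, and 46.96 CPM in E-CAD- 2NG- cells (-1.89, FDR = 0.00014). With so few libraries a lack of overlap was common. It was found for 57.4% of all genes with MKOS, 51.6% in OKMS E-CAD+, and 46.6% in OKMS E-CAD- cells.

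*Pfkp* rose in all 3 populations, while *Hk1* fell in the OKMS populations. *Pfkp* was at 11.1 and 5.76 CPM in MKOS MEFs and 97.5, 72.04, and 133 CPM in MKOS 2NG- cells, an 11.2-fold difference (log2 fold change 3.48, SE 0.53, FDR = 2.9e-06). In OKMS MEFs it was at 13.4 and 19.01 CPM, with 28.8, 46.1, and 34.6 CPM in E-CAD+ (1.27, FDR = 0.040) and 61.3, 59.7, and 36.8 CPM in E-CAD- 2NG- cells (1.68, FDR = 0.0096). *Hk1* was at 31.7 and 46.3 CPM in OKMS MEFs and fell to 13.1, 12.2, and 11.1 CPM in E-CAD+ (log2 fold change -1.56, SE 0.40, FDR = 0.0026) and 22.6, 10.99, and 13.4 CPM in E-CAD- 2NG- cells (-1.31, FDR = 0.015). With MKOS it was at 17.1 and 39.2 CPM in MEFs and 52.8, 45.02, and 62.5 CPM in 2NG- cells and did not pass (0.93, FDR = 0.088). *Hk2* rose with OKMS, by 0.86 in E-CAD+ (FDR = 0.017) and 1.03 in E-CAD- cells (FDR = 0.0064), and did not pass with MKOS (0.55, FDR = 0.14).

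*Ldhb* fell in MKOS 2NG- cells and did not pass in the OKMS populations. It was at 149.7 and 122 CPM in MKOS MEFs and at 23.2, 12.5, and 18.97 CPM in MKOS 2NG- cells, 7.66-fold lower (log2 fold change -2.94, SE 0.55, FDR = 6.5e-05). In OKMS MEFs it was at 165 and 182 CPM, with 67.8, 68.3, and 205 CPM in E-CAD+ (-0.46, FDR = 0.55) and 101, 129, and 109 CPM in E-CAD- 2NG- cells (-0.66, FDR = 0.40). The difference between the cassettes in this change had its own test, given further on. *Slc16a1*, a lactate carrier of the plasma membrane, rose in OKMS E-CAD+ cells (log2 fold change 2.03, SE 0.47, FDR = 0.00085), with 40.9, 66.4, and 196 CPM against 30.8 and 23.7 CPM in MEFs, and replicate 3 was far above the others.

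For the pyruvate dehydrogenase complex, *Pdhb* rose in both E-CAD+ populations (1.04, FDR = 0.0010 with MKOS, and 0.85, FDR = 0.0062 with OKMS), *Pdha1* rose with OKMS (0.74, FDR = 0.0090), and *Pdk1* rose in both (1.20, FDR = 0.039, and 1.27, FDR = 0.028). *Pdk3* fell with MKOS (-1.13, FDR = 0.041), and *Ucp2* fell with MKOS (-0.91, FDR = 0.027) and in OKMS E-CAD- cells (-0.97, FDR = 0.023). *Eno3* fell in both OKMS populations (-1.89, FDR = 0.0047 in E-CAD+, and -1.41, FDR = 0.042 in E-CAD- cells), *Eno2* fell with MKOS (-3.47, FDR = 0.035) at 3.16, 0.590, and 1.35 CPM against 12.2 and 26.4 CPM, and *Aldoc*, the brain aldolase, rose in E-CAD- cells (2.67, FDR = 0.025) at 9.11, 14.4, and 12.1 CPM against 3.16 and 0.458 CPM. The *Eno1* row rose with MKOS (2.39, FDR = 0.028), as did *Gm5506_loc2* (0.78, FDR = 0.024).

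With 2 MEF libraries a cassette, a number of these calls rested on single libraries. *Slc2a3* and *Hif1a* in all 3 populations, *Pfkp* and *Ldhb* with MKOS, and *Slc2a1* and *Hk1* in OKMS E-CAD+ cells passed in every alternative tried. With MKOS, the calls of *Slc2a1* and *Pdhb* were lost without MKOS MEF replicate 2 (FDR between 0.065 and 0.068), and those of *Ucp2*, *Eno1*, *Eno2*, *Pdk1*, and *Pdk3* without at least 1 of MKOS E-CAD+ 2NG- replicates 1, 2 or 3, or MKOS MEF replicates 1 or 2 (FDR between 0.050 and 0.40). In OKMS E-CAD+ cells, *Slc16a1* was lost without OKMS E-CAD+ 2NG- replicate 3 (FDR = 0.060) and had a log2 fold change of 1.01 there, *Eno3* without OKMS MEF replicate 1 (FDR = 0.19), *Pdhb* without OKMS MEF replicate 2 (FDR = 0.22), and *Pdha1*, *Hk2*, *Pdk1*, and *Pfkp* without at least 1 of OKMS E-CAD+ 2NG- replicates 1, 2 or 3, or OKMS MEF replicates 1 or 2 (FDR between 0.051 and 0.23). In E-CAD- cells, *Hk2* was lost without OKMS MEF replicate 2 (FDR = 0.072), and *Pfkp*, *Hk1*, *Ucp2*, *Aldoc*, and *Eno3* without at least 1 of OKMS E-CAD- 2NG- replicates 2 or 3, or OKMS MEF replicates 1 or 2 (FDR between 0.055 and 0.52). Fibroblast markers fell across the same comparisons, and epithelial markers (5 of 5) were at 13.7 to 34.7 CPM in MEFs, 657 to 1281 CPM in MKOS NG- cells, 618 to 1002 CPM in OKMS E-CAD+ NG- cells, and 67.5 to 192 CPM in OKMS E-CAD- cells. Their part in the changes was not tested.

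**Figure D3:**
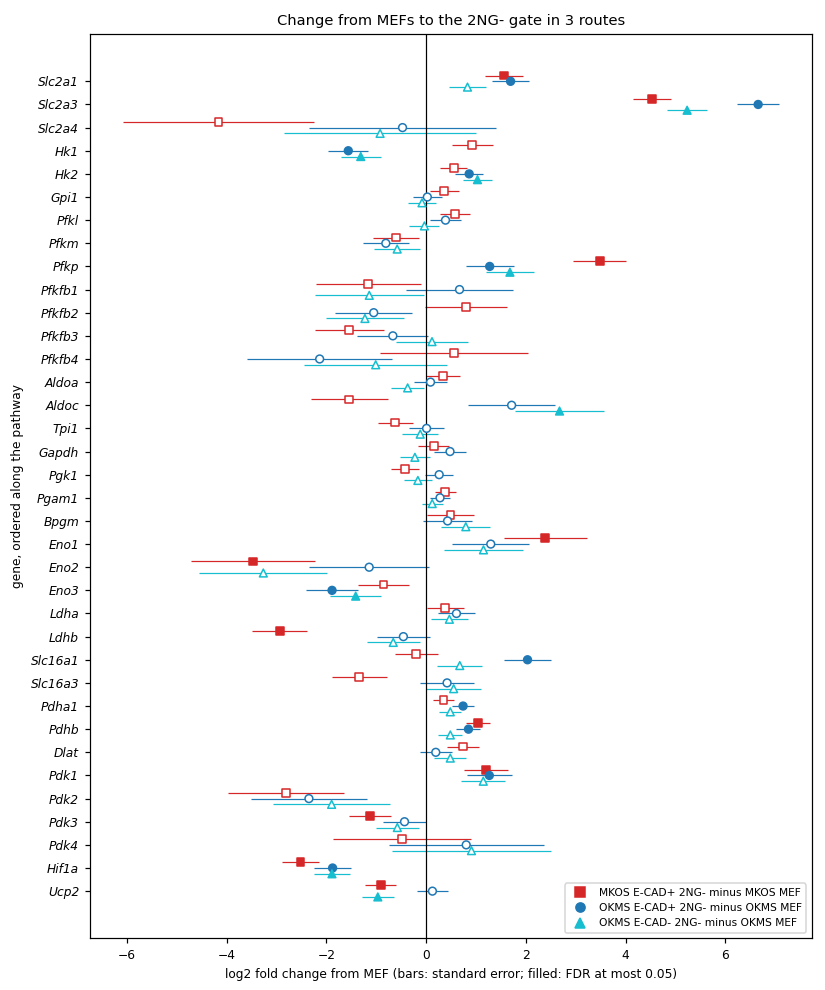
Log2 fold change from MEFs to 2NG- cells of the same cassette for the 36 genes, ordered along the pathway, for MKOS (squares), OKMS E-CAD+ (circles), and OKMS E-CAD- cells (triangles), with standard errors (lines) and filled symbols at an FDR of at most 0.05. *Slc2a3* is far to the right in all 3 populations, *Hif1a* to the left in all 3, and the MKOS squares of *Hk1* and *Pfkp* lie to the right, and that of *Ldhb* to the left, of the OKMS symbols.

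MKOS and OKMS cells of the same E-CAD+ gate were then compared. Each cassette came with its own targeted ESC line and its own MEFs, so the cassette cannot be told apart from these. The number of genes that passed among the 36 was 7 at 2NG- (2 higher and 5 lower with MKOS, or 19.4%, where 5.07% of all genes passed, 2.84% higher and 2.23% lower), 2 at 3NG- (1 in each direction, where 2.17% passed, 1.38% higher and 0.787% lower), and 1 at 3NG+ (lower, where 0.685% passed, 0.345% higher and 0.339% lower). Without the filter on low counts 12, 8, and 7 of the 36 passed in the same order, where 6.37%, 4.37%, and 2.45% of all genes did, and with DESeq2 8, 4, and 3, where 7.15%, 3.56%, and 1.73% did. The median log2 fold change of the 36 was -0.22, -0.18, and -0.36 in the order of the gates, while over all genes it was 0.0029, 0.0074, and 0.0077. The MKOS and OKMS libraries did not overlap for 25%, 21.7%, and 17.2% of all genes tested, in the same order.

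*Ldhb* was lower with MKOS in all 3 gates. In 2NG- cells it was at 23.2, 12.5, and 18.97 CPM with MKOS and 67.8, 68.3, and 205 CPM with OKMS (log2 fold change -2.77, SE 0.51, FDR = 0.00055). In 3NG- cells it was at 39.8, 34.5, and 77.9 CPM and 150.0, 146, and 255 CPM (log2 fold change -2.00, SE 0.49, FDR = 0.018), and in 3NG+ cells at 22.1, 23.5, and 52.00 CPM and 671, 345, and 631 CPM, 18.6-fold lower (log2 fold change -4.22, SE 0.54, FDR = 2.1e-05). The 3 MKOS libraries were below the 3 OKMS libraries in each gate. The 3NG- call was lost without MKOS E-CAD+ 3NG- replicates 1 or 2, or OKMS E-CAD+ 3NG- replicate 3 (FDR between 0.098 and 0.12), and the other calls stood in every alternative tried. The companion subunit *Ldha* did not pass in any gate (-0.71, FDR = 0.23 at 2NG-, -0.84, FDR = 0.21 at 3NG-, and -0.60, FDR = 0.46 at 3NG+).

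*Hk1* was higher with MKOS. It was at 52.8, 45.02, and 62.5 CPM with MKOS and 13.1, 12.2, and 11.1 CPM with OKMS in 2NG- cells (log2 fold change 2.05, SE 0.37, FDR = 0.00043), and at 36.3, 68.3, and 50.8 CPM and 11.7, 17.9, and 16.5 CPM in 3NG- cells (log2 fold change 1.63, SE 0.37, FDR = 0.0088), with no overlap in either gate. In 3NG+ cells it was at 43.1, 33.2, and 36.5 CPM and 25.5, 31.5, and 10.7 CPM and did not pass (0.63, FDR = 0.49). The 2NG- call stood in every alternative tried, and the 3NG- call was lost without MKOS E-CAD+ 3NG- replicate 2, or OKMS E-CAD+ 3NG- replicate 1 (FDR between 0.082 and 0.085). *Hk2* did not pass in any gate (0.19, FDR = 0.74, 0.27, FDR = 0.68, and 0.09, FDR = 0.96 in the same order).

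*Slc2a3* was lower with MKOS in 2NG- cells, at 132, 155, and 226 CPM against 385, 507, and 453 CPM (log2 fold change -1.48, SE 0.27, FDR = 0.00038), also in every alternative tried. It was at 197, 211, and 271 CPM against 284, 290.2, and 395 CPM in 3NG- cells (-0.64, FDR = 0.23) and 169, 128, and 154 CPM against 214, 265, and 261 CPM in 3NG+ cells (-0.87, FDR = 0.12), where it did not pass although the libraries did not overlap. *Pfkp* was at 97.5, 72.04, and 133 CPM with MKOS and 28.8, 46.1, and 34.6 CPM with OKMS in 2NG- cells (log2 fold change 1.39, SE 0.41, FDR = 0.035), and did not pass in gate 3 (1.12, FDR = 0.15 at 3NG-, and 0.21, FDR = 0.90 at 3NG+). Both lactate carriers and *Pgk1*, the first ATP-forming enzyme of the route, were lower with MKOS at 2NG-. *Slc16a3* was at 6.53, 3.10, and 11.2 CPM and 20.5, 32.2, and 34.1 CPM (log2 fold change -2.14, SE 0.51, FDR = 0.0071), *Slc16a1* at 41.4, 40.3, and 39.4 CPM and 40.9, 66.4, and 196 CPM (-1.46, FDR = 0.020), and *Pgk1* at 408, 359, and 491 CPM and 515, 829.8, and 773 CPM (-0.84, FDR = 0.040).

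Of these, *Slc16a3* was lost without MKOS E-CAD+ 2NG- replicate 2 (FDR = 0.074), *Pfkp* without MKOS E-CAD+ 2NG- replicates 1 or 3, or OKMS E-CAD+ 2NG- replicates 1, 2 or 3 (FDR between 0.058 and 0.15), and *Pgk1* without MKOS E-CAD+ 2NG- replicates 1 or 2, or OKMS E-CAD+ 2NG- replicates 2 or 3 (FDR between 0.12 and 0.19). *Slc16a1* was lost without MKOS E-CAD+ 2NG- replicates 1, 2 or 3, or OKMS E-CAD+ 2NG- replicate 3 (FDR between 0.066 and 0.59), and without OKMS replicate 3 its log2 fold change was -0.44. Without the 7 libraries that the study's averages leave out, 4 of the 7 genes passed, and *Pfkp* (FDR = 0.25), *Pgk1* (FDR = 0.12), and *Slc16a1* (FDR = 0.49) did not. Fibroblast markers were higher with MKOS in the 2NG- gate, at 407 to 817 CPM against 81.6 to 240.2 CPM, and pluripotency markers were at 2194 to 3512 CPM against 791 to 3393 CPM, and their part in the results was not tested. The values of *Ldhb* and *Hk1* in MEFs of each cassette are given above.

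**Figure D4:**
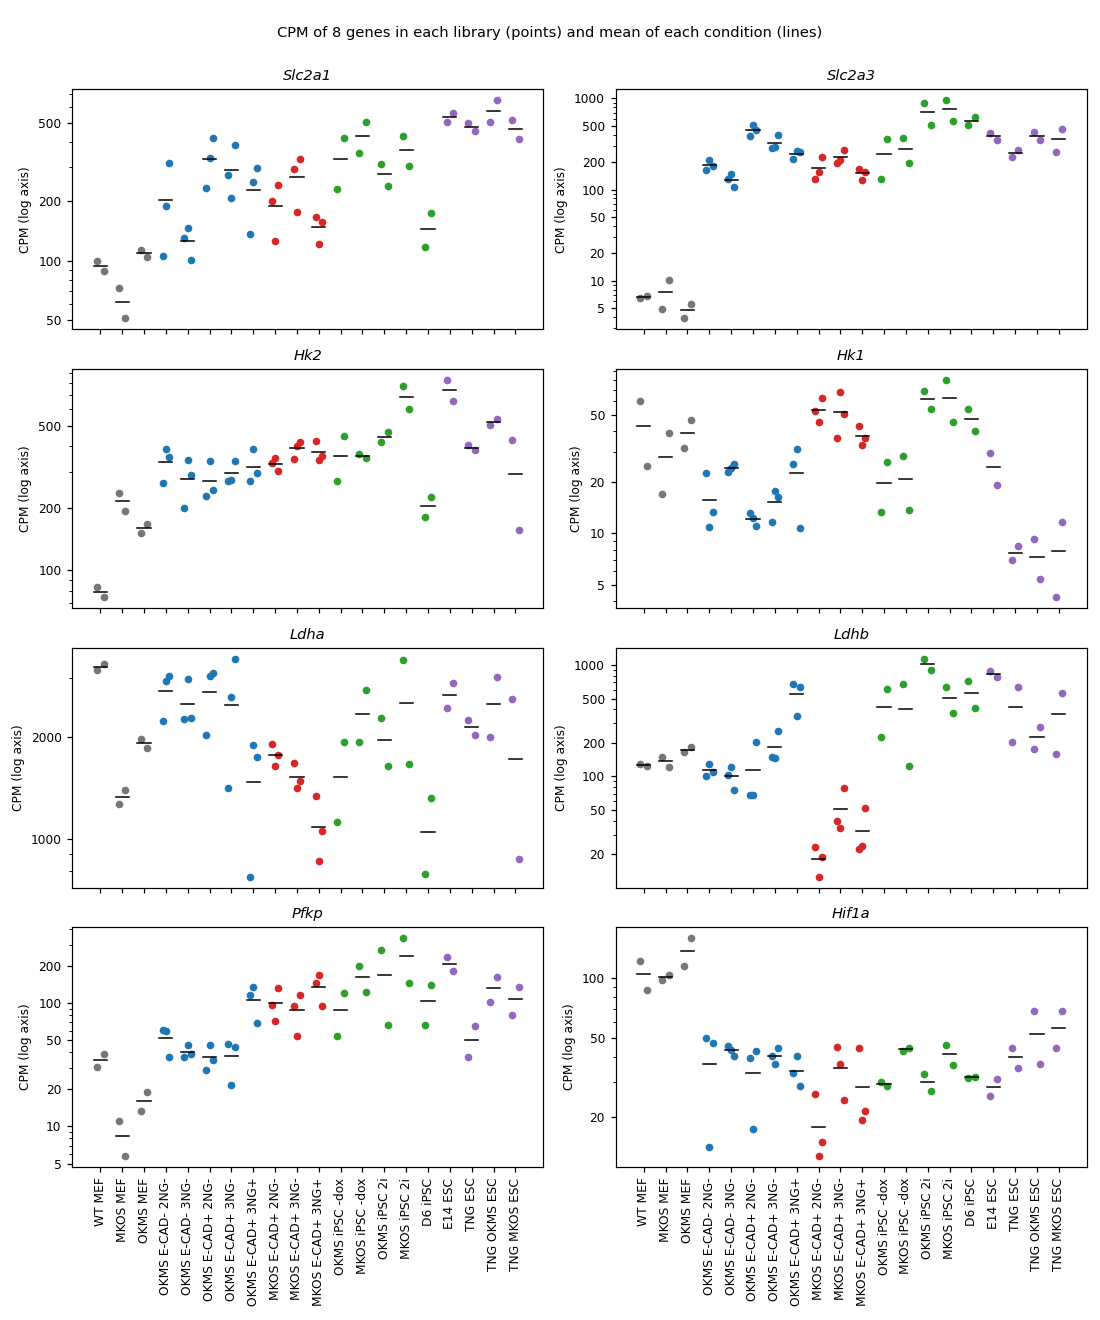
CPM of 8 genes in each of the 48 libraries (points, log axis) with the mean of each condition (black lines), grouped as MEFs (gray), OKMS (blue) and MKOS (red) sorted cells, iPSCs (green), and ESCs (purple). *Ldhb* is lowest in the MKOS sorted cells (12.5 to 77.9 CPM) and *Hk1* is higher in them (33.2 to 68.3 CPM) than in most OKMS sorted cells (10.7 to 31.5 CPM in E-CAD+).

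The isoenzyme ratios were also compared between cassettes. Permuting the cassette within each gate over 18 E-CAD+ libraries, 3 of the 9 ratios passed, each at the smallest p that the 8000 arrangements allow. This takes the libraries of the 3 gates as independent. Shuffling whole replicate sets, an alternative chosen after seeing the data, leaves 20 arrangements and a smallest p of 0.1, which these 3 ratios had. The *Ldhb* to *Ldha* ratio differed by -2.31 log2 units (exact p = 0.00025, adjusted p = 0.00075), with *Ldhb* at 2.41% ± 1.53 of the pair in MKOS and 13.5% ± 14.5 in OKMS E-CAD+ sorted cells (SD, n = 9 each). The OKMS mean is raised by the 3NG+ libraries (29.5% ± 15.8, n = 3). In NG- cells the share was 2.11% ± 1.56 with MKOS and 5.56% ± 2.66 with OKMS E-CAD+ (n = 6 each), and 3.90% ± 0.475 with OKMS E-CAD- (n = 6). The *Hk2* to *Hk1* ratio differed by -1.25 log2 units (exact p = 0.00025, adjusted p = 0.00075), with *Hk2* at 88.4% ± 2.92 and 94.7% ± 1.81 of the pair. The *Pfkp* to *Pfkl* ratio differed by 1.32 log2 units (exact p = 0.00025, adjusted p = 0.00075), with *Pfkp* at 46.5% ± 9.04 and 27.1% ± 11.3. The *Slc2a3* to *Slc2a1* ratio (-0.39 log2 units, exact p = 0.030, adjusted p = 0.068) and the 5 others did not pass.

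**Figure D5:**
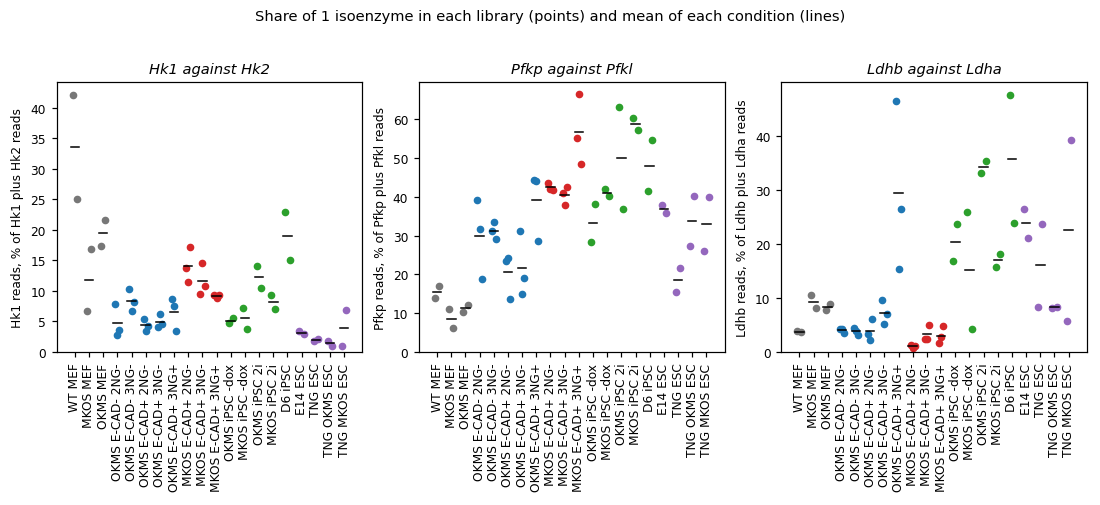
Share of 1 isoenzyme in the reads of a pair, in percent, for *Hk1* of *Hk1* plus *Hk2*, *Pfkp* of *Pfkp* plus *Pfkl*, and *Ldhb* of *Ldha* plus *Ldhb*, in each library (points) with condition means (lines), in the colors of the library plot. The means of the 3 MKOS sorted conditions (red, libraries at 0.754% to 4.99%) are the lowest for *Ldhb*, although single libraries overlap with other groups, and OKMS 3NG+ cells reach 46.5%.

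Whether the cassettes differed in the change from MEFs to 2NG- cells was tested as a difference of differences. *Slc2a3* (log2 fold change -2.13, SE 0.47, FDR = 0.0099) and *Hk1* (log2 fold change 2.49, SE 0.58, FDR = 0.014) passed, where 1.35% of all genes did, 0.793% higher and 0.557% lower, and *Pfkp* (2.21, FDR = 0.086) and *Ldhb* (-2.48, FDR = 0.10) did not. The *Slc2a3* call was lost without MKOS MEF replicate 2, or OKMS MEF replicate 1 (FDR between 0.071 and 0.16), and the *Hk1* call without MKOS MEF replicate 1, or OKMS MEF replicate 2 (FDR between 0.093 and 0.17), and also without the 7 libraries named above (FDR = 0.056). In MKOS against OKMS MEFs none of the 36 genes passed with edgeR or with DESeq2, where 0.102% of all genes did, 0.0256% higher and 0.0768% lower, and 2 genes (*Aldoc* and *Pgam1*) had an unadjusted p below 0.05.

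Along the gates of 1 cassette few of the 36 genes passed, and both steps of a cassette share its 3NG- libraries. From 2NG- to 3NG- none passed with edgeR on filtered counts or with DESeq2, with MKOS (0.39% of all genes passed, 0.352% higher and 0.0384% lower, and 4 of the 36 had an unadjusted p below 0.05) or with OKMS (0.0384% of all genes, and 1 of the 36). Without the filter on low counts *Ldhb* passed in MKOS cells (log2 fold change 1.38, FDR = 3.0e-06). From 3NG- to 3NG+, where *Nanog*-GFP is switched on, none passed with MKOS (1.58% of all genes, 0.557% higher and 1.02% lower, 5 of the 36 at an unadjusted p below 0.05, and 1 of the 36 with DESeq2), and the lowest FDR was that of *Eno3* (-1.61, FDR = 0.071). *Eno3* passed with DESeq2 (adjusted p = 0.037) and, without the filter, in edgeR (FDR = 0.0040), as did *Slc16a3* (FDR = 0.0081).

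With OKMS, 3 of the 36 rose from 3NG- to 3NG+ and none fell, where 6.26% of all genes passed, 3.06% higher and 3.21% lower. *Pdhb* was at 189.7, 149, and 151 CPM in 3NG- and 302, 282, and 235 CPM in 3NG+ cells (log2 fold change 0.95, SE 0.21, FDR = 0.0041), *Pfkp* at 47.1, 21.7, and 44.02 CPM and 118, 135, and 69.2 CPM (log2 fold change 1.69, SE 0.41, FDR = 0.0089), and *Ldhb* at 150.0, 146, and 255 CPM and 671, 345, and 631 CPM (log2 fold change 1.79, SE 0.49, FDR = 0.020). The libraries of the gates did not overlap for these genes, nor did they for 22.1% of all genes tested. The *Pdhb* call stood in every alternative tried, while *Pfkp* was lost without OKMS E-CAD+ 3NG- replicate 2 (FDR = 0.092) and *Ldhb* without OKMS E-CAD+ 3NG+ replicates 1 or 3, or OKMS E-CAD+ 3NG- replicates 1 or 2 (FDR between 0.065 and 0.12). The difference between the cassettes in this step did not pass for any of the 36 with edgeR on filtered counts or with DESeq2 (0.0256% of all genes passed, 0.0128% higher and 0.0128% lower, and 2 of the 36 had an unadjusted p below 0.05), *Ldhb* having a difference of -2.22, FDR = 0.35. Without the filter *Ldhb* passed (-2.23, FDR = 2.0e-08), so its call turned on that choice.

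E-CAD+ and E-CAD- OKMS cells were compared over 2NG- and 3NG- together, with 6 libraries each. The fit takes the libraries of both gates as independent, although the gates carry the same 3 replicate numbers. Of the 36, 6 were higher in E-CAD+ cells and none lower, or 16.7% where 7.08% of all genes passed, 4.69% higher and 2.39% lower. The E-CAD+ and E-CAD- libraries did not overlap for 3.05% of all genes tested. *Slc2a3* was at 284 to 507 CPM (median 390.0) in E-CAD+ and 107 to 210.1 CPM (median 157) in E-CAD- cells, without overlap (log2 fold change 1.43, SE 0.19, FDR = 8.8e-07). *Slc2a1* was at 207 to 417 CPM (median 301) and 101 to 315 CPM (median 139) (log2 fold change 1.08, SE 0.23, FDR = 0.0013), so both transporters were lower in the population that lacks E-CADHERIN. *Pfkfb1* had 8 to 26 reads in each E-CAD+ library and was at 0 in 4 of the 6 E-CAD- libraries, with 7 and 3 reads in the others (FDR = 0.0030). These 3 calls stood in every alternative tried. *Slc16a1* (1.20, FDR = 0.0040) was lost without OKMS E-CAD+ 2NG- replicate 3, or OKMS E-CAD+ 3NG- replicate 3 (FDR between 0.053 and 0.082), *Ucp2* (0.78, FDR = 0.011) without OKMS E-CAD- 3NG- replicate 3 (FDR = 0.052), and *Gapdh* (0.64, FDR = 0.036) without OKMS E-CAD+ 2NG- replicate 3, OKMS E-CAD+ 3NG- replicate 3, OKMS E-CAD- 2NG- replicates 1, 2 or 3, or OKMS E-CAD- 3NG- replicates 2 or 3 (FDR between 0.057 and 0.12). All 3 also failed without the 7 libraries named above (FDR = 0.18, 0.18, and 0.49). Fibroblast markers were higher in E-CAD- cells (572 to 916 CPM against 81.6 to 301 CPM), pluripotency markers (8 of 8) were lower (155 to 253 CPM against 791 to 5655 CPM), and their part in these results was not tested.

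From sorted 3NG+ cells to established iPSC clones without doxycycline, 5 of the 36 rose with MKOS and none fell, where 2.14% of all genes passed, 0.825% higher and 1.32% lower, and none passed with OKMS by edgeR or DESeq2 (0.614% of all genes, 0.301% higher and 0.313% lower, and 1 of the 36 at an unadjusted p below 0.05). *Pgk1* was at 432, 296, and 315 CPM in MKOS 3NG+ cells and 2487 and 1384 CPM in the iPSCs (log2 fold change 2.45, SE 0.28, FDR = 1.7e-07), a call that stood in every alternative tried but with 32.1% unique reads. *Ldhb* was at 22.1, 23.5, and 52.00 CPM and 679.9 and 125 CPM (log2 fold change 3.56, SE 0.55, FDR = 7.4e-05), and the call was lost without MKOS iPSC -dox replicate 1 (FDR = 0.12). *Slc2a1*, *Pfkl*, and *Pdk3* rose by 1.51, 1.17, and 1.70 (FDR = 0.011, 0.023, and 0.023), and were lost without at least 1 of MKOS E-CAD+ 3NG+ replicates 1, 2 or 3, or MKOS iPSC -dox replicates 1 or 2 (FDR between 0.051 and 0.39). These groups differ in doxycycline and vitamin C as well as in stage, and fibroblast markers were at 102 to 621 CPM in 3NG+ cells against 8.34 to 10.2 CPM in iPSCs.

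In 2i medium, compared with -dox iPSCs over both cassettes (4 libraries each), 4 genes rose and 2 fell, or 16.7% where 4.34% of all genes passed, 1.89% higher and 2.45% lower. *Slc2a3* was at 954 and 571 CPM (MKOS) and 898 and 508 CPM (OKMS) in 2i, and at 367 and 196 CPM and 131 and 362 CPM without it (log2 fold change 1.38, SE 0.23, FDR = 0.00016). *Hk1* was at 80.4 and 45.5 CPM and 69.1 and 54.1 CPM in 2i, and at 28.4 and 13.7 CPM and 13.4 and 26.2 CPM without it (log2 fold change 1.504, SE 0.32, FDR = 0.0025). Every 2i library was above every -dox library for both genes, and these libraries did not overlap for 7.74% of all genes tested. *Gpi1*, which follows hexokinase in the route, was at 1096 and 431 CPM and 754 and 554 CPM in 2i, and at 393 and 221 CPM and 128 and 277 CPM without it (log2 fold change 1.40, SE 0.23, FDR = 9.8e-05). *Pdk1* moved the opposite way, at 43.9 and 11.7 CPM and 25.5 and 10.7 CPM in 2i, and at 112 and 67.4 CPM and 70.9 and 44.5 CPM without it (log2 fold change -1.80, SE 0.33, FDR = 0.00063). These 4 calls stood in every alternative tried. *Aldoc* rose (2.14, FDR = 0.032) and *Eno3* fell (-1.69, FDR = 0.018), and both were lost without at least 1 of MKOS iPSC -dox replicate 2, MKOS iPSC 2i replicate 1, OKMS iPSC -dox replicates 1 or 2, or OKMS iPSC 2i replicates 1 or 2 (FDR between 0.057 and 0.31).

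Against TNG MKOS and TNG OKMS ESCs, which carry the same cassettes, the -dox iPSCs, the same libraries as in the 2i comparison, had 3 of the 36 genes higher and none lower, where 1.4% of all genes passed, 1.13% higher and 0.269% lower. *Ucp2* was at 124 and 93.3 CPM (MKOS) and 135 and 137 CPM (OKMS) in iPSCs, and at 63.9 and 39.1 CPM and 32.2 and 51.4 CPM in ESCs (log2 fold change 1.49, SE 0.25, FDR = 0.00037). *Hk1* was at 4.21 and 11.6 CPM and 9.22 and 5.36 CPM in those ESCs, below every -dox iPSC library (13.4 to 28.4 CPM, log2 fold change 1.63, SE 0.33, FDR = 0.0031). These iPSC and ESC libraries did not overlap for 5.04% of all genes tested. *Pgk1* rose by 0.85 (FDR = 0.032), and its call was lost without MKOS iPSC -dox replicate 1, OKMS iPSC -dox replicate 2, TNG MKOS ESC replicate 2, or TNG OKMS ESC replicate 1 (FDR between 0.095 and 0.20). In the D6 iPSC line *Hk1* was at 53.95 and 39.8 CPM, *Slc2a3* at 515 and 624 CPM, *Slc2a1* at 117 and 174 CPM, and *Pdk1* at 18.3 and 23.2 CPM, in 2 libraries of a single line. Its *Slc2a1* and *Pdk1* values were below those of all 8 ESC libraries (413 to 651 and 57.6 to 184 CPM) and its *Slc2a3* and *Hk1* values above them. The *Slc2a3* and *Pdk1* values of D6 lay within the range of the 2i iPSC libraries given above. For *Hk1*, 53.95 CPM lay within that range and 39.8 CPM below it, and for *Slc2a1* D6 was below the 2i libraries (239 to 430 CPM). The *Slc2a3* share of *Slc2a1* plus *Slc2a3* reads averaged 79.8% in D6, 69.2% in 2i iPSCs, and 39.97% in ESCs.

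Genes outside the 36 were described from lists of the same pathway and its neighbors. Of 21 tested genes of other glycolysis, 6 were higher and 6 lower in ESCs than in MEFs, and of 19 genes of pyruvate entry 5 were higher and 7 lower. *Pkm*, which makes pyruvate from phosphoenolpyruvate, rose by 0.84 (FDR = 7.6e-06), *Got1*, a cytosolic aspartate aminotransferase, by 2.86 (FDR = 1.0e-16), and *Slc16a6*, a carrier related to the lactate carriers, by 3.64 (FDR = 9.5e-09). *Pdp1*, the phosphatase that reactivates pyruvate dehydrogenase, fell (-2.90, FDR = 3.7e-07), as did *Mpc1*, a subunit of the mitochondrial pyruvate carrier (-0.98, FDR = 6.9e-07), *Bsg*, a chaperone of lactate carriers (-0.94, FDR = 1.4e-06), and *G6pc3* (-1.67, FDR = 1.0e-07).

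Of 21 tested genes of the HIF pathway and its targets, 4 were higher and 7 lower in ESCs. *Ak4*, a mitochondrial adenylate kinase, rose by 3.04 (FDR = 6.5e-11) and *Kdm3a*, a histone demethylase, by 1.88 (FDR = 8.8e-09), whereas *Adm*, which encodes adrenomedullin (-6.60, FDR = 2.8e-09), and *P4ha1*, a collagen prolyl hydroxylase (-2.84, FDR = 2.8e-12), fell. Of 10 pentose phosphate genes 3 were higher and 2 lower, with *Prps1* at 2.14, FDR = 3.8e-13 and *H6pd* at -3.03, FDR = 6.7e-06, and of 16 TCA cycle genes 2 were higher and 4 lower, with *Idh3a* at 1.10, FDR = 6.0e-08 and *Dlst* at -0.75, FDR = 8.6e-07. The members of each list that passed were therefore split in direction, against 60.1% of all genes passing.

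From MEFs to 2NG- cells, 4 of the 16 TCA cycle genes rose and none fell with MKOS, and the same counts were found in OKMS E-CAD+ cells, or 25% of the list where 27% and 29.2% of all genes passed, 15.7% higher and 13.5% lower. *Idh3a* rose in both (1.84, FDR = 1.3e-06 with MKOS, and 1.57, FDR = 1.3e-05 with OKMS). For pyruvate entry 6 rose and 2 fell with MKOS, and 6 rose and 1 fell with OKMS E-CAD+, of 19 genes tested and beside the same shares of all genes, with *Got1* higher in both (2.71, FDR = 2.1e-08, and 1.95, FDR = 4.2e-06) and *Pcx*, pyruvate carboxylase, lower with MKOS (-3.22, FDR = 0.00016). *Ak4* also rose in both (6.06, FDR = 1.6e-09, and 3.31, FDR = 1.0e-05), and *P4ha1* (-1.76, FDR = 0.0015, and -2.22, FDR = 0.00011) and *P4ha2* (-2.40, FDR = 0.0042, and -3.66, FDR = 7.2e-05) fell in both. Between the cassettes at 2NG-, *Pcx* (-3.17, FDR = 0.00086), *Pck2*, a mitochondrial phosphoenolpyruvate carboxykinase (-2.27, FDR = 0.024), and *Khk*, ketohexokinase (-3.45, FDR = 0.0018), were lower with MKOS, and *Ak4* was higher (1.86, FDR = 0.0027). At 3NG- *Pcx* was again lower with MKOS (-3.88, FDR = 0.00017) and *Ak4* higher (2.10, FDR = 0.0016). Of the 19 pyruvate entry genes tested, 2 were higher and 3 lower with MKOS at 2NG-, where 5.07% of all genes passed. At 3NG- 1 of them was higher and 1 lower, where 2.17% of all genes passed. The pyruvate entry genes that were higher with MKOS are not named here. In 2i medium 4 of the 21 HIF pathway genes rose and none fell, where 1.89% of all genes rose and 2.45% fell, with *Ak4* (1.74, FDR = 0.0012), *P4ha1* (1.49, FDR = 0.0064), *Ero1l*, a disulfide oxidase (1.55, FDR = 0.033), and *Ndrg1* (1.18, FDR = 0.042).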

How the data were processed

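The 5′-end RNA libraries (STRT) of 48 bulk samples in 20 conditions were deposited as 1 table of raw read counts, the unit the authors provided per transcript, repeat type, and spike-in. Per the file headers, reads with several hits were assigned to their most 5′ exonic hit and included in the totals. The submitters' processing notes name Bowtie 0.12.7 and mm10, and the positions in the table matched GRCm38 (99.3% of 20695 shared gene symbols lay within 1000 bases of the gene, and 36 of 36 members did), whereas the study's methods name another build. Repeats and spike-ins, 20.3% of all reads, were left out of library sizes and tests, and CPM was computed over the 24264 transcripts.

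Groups were taken from the sample labels. Counts were filtered with filterByExpr, scaled by TMM, and fitted with 20 condition coefficients by the quasi-likelihood test of edgeR 4.0.16 (R 4.3.3), and p-values were adjusted by the Benjamini-Hochberg method over all 15630 genes, with an FDR of 0.05 as threshold. Comparisons of several conditions were averages of their coefficients. Isoenzyme ratios were log2 ratios of reads plus 1, compared by exact two-sided permutation over libraries and adjusted over 9 pairs. Fits without 1 library kept the genes and the trended dispersion of the full fit and re-estimated the rest. Alternatives were DESeq2 1.42.0, edgeR with the size factors of DESeq2, all genes without a filter, a fit of the compared libraries only, a replicate block, and omission of single libraries or of 7 sorted libraries. The procedure was tested on simulated counts for MKOS against OKMS 2NG- cells (14868 genes), where edgeR called 9 of 67 genes changed 2-fold, 49 of 67 changed 4-fold, 59 of 66 changed 8-fold, and 5 of 14668 unchanged genes. The changed genes were drawn from those with a mean above 5 CPM, so these rates do not cover rarer members. Each other gene had the same mean in all conditions of the simulation.

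The members and gene lists were chosen with earlier results of these data known. All 36 members were accounted for, members at an FDR of at most 0.05 were named with their change, library values were given for the members of lowest FDR and for isoenzyme pairs, and up to 4 passing genes of lowest FDR were named from each other list, with fewer in some comparisons. Read depth was 1429717 to 14174725 per library, and 3 reads corresponded to 0.212 to 2.10 CPM, which limits the precision of the rare members. Plots used Matplotlib 3.10.9, and tables used pandas 2.3.3 with NumPy 2.4.6 under Python 3.11.15.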

Additional observations from a re-analysis of the deposited data

Results flagged for a closer look

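The difference between the cassettes in the change from MEFs to E-CAD+ 2NG- cells (MKOS minus OKMS) passed the interaction test for 2 genes. For *Slc2a3* it was -2.13 on the log2 scale (SE 0.47, FDR = 0.0099), with changes of 4.52 with MKOS and 6.66 with OKMS. In each cassette the 3 libraries of 2NG- cells lay above both MEF libraries, where 57.4% of all genes with MKOS and 51.6% with OKMS did not overlap in either direction. The call was lost without MKOS MEF replicate 2 or OKMS MEF replicate 1 (FDR between 0.071 and 0.16). For *Hk1* it was 2.49 (SE 0.58, FDR = 0.014), with changes of 0.93 with MKOS and -1.56 with OKMS. This call was lost without MKOS MEF replicate 1 or OKMS MEF replicate 2 (FDR between 0.093 and 0.17), and without the 7 sorted libraries that the study's averages leave out (FDR = 0.056).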

How the results depend on the processing

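Over the 86 called changes of single members, 1226 recomputed values kept the direction of the original, 1078 also kept the call, 148 lost it, and none reversed, and 44 changes held under each alternative tried. For the number of members called, no filter on low counts gave 12 (7 in the original) for MKOS against OKMS at 2NG-, 8 (2) at 3NG-, 7 (1) at 3NG+, 1 (0) for MKOS 3NG- against 2NG-, 2 (0) for MKOS 3NG+ against 3NG-, 8 (3) for OKMS 3NG+ against 3NG-, 10 (6) for E-CAD+ against E-CAD-, 9 (5) for MKOS iPSCs against 3NG+, and 7 (2) and 1 (0) for the cassette differences in the first and last step. DESeq2 gave 4 at 3NG-, 3 at 3NG+, 1 for MKOS 3NG+ against 3NG-, 5 for OKMS 3NG+ against 3NG-, and 4 for the cassette difference from MEFs. Without the 7 sorted libraries the counts were 4 at 2NG-, 1 for MKOS 3NG+ against 3NG-, 5 for OKMS 3NG+ against 3NG-, 3 for E-CAD+ against E-CAD-, and 1 for the cassette difference from MEFs, and the fit of the compared libraries only gave 3 at 3NG+. The cause of these moves was not tested. Leaving out 1 library at a time gave 20 to 22 for ESCs against MEFs, 5 to 10 for MKOS, 6 to 10 for OKMS E-CAD+, and 3 to 9 for OKMS E-CAD- 2NG- cells against MEFs, 4 to 6, 0 to 3, and 1 to 1 for MKOS against OKMS at 2NG-, 3NG-, and 3NG+, 2 to 5 for OKMS 3NG+ against 3NG-, 4 to 7 for E-CAD+ against E-CAD-, 2 to 4 for MKOS iPSCs against 3NG+, 4 to 7 for 2i, 2 to 4 for iPSCs against ESCs, and 1 to 3 for the cassette difference from MEFs. The lowest counts from MEFs came without MKOS MEF replicate 2 (5) and OKMS MEF replicate 2 (6 and 3). It gave 6 to 7 isoenzyme ratios for ESCs against MEFs and 3 to 4 for MKOS against OKMS, and shuffling whole replicate sets, added after seeing the data, gave 0 of 9, since its 20 arrangements allow no p under 0.1. With a replicate block, OKMS 3NG+ against 3NG- had 5 calls, MKOS against OKMS at 3NG+ had 2, and 85 of 86 member changes kept their call, the exception being *Eno3* in OKMS E-CAD- 2NG- cells against MEFs (log2 fold change -1.22), while the *Slc2a3* to *Slc2a1* ratio between cassettes passed (adjusted p = 0.035). Same-numbered samples had a mean correlation of 0.081 over 84 pairs, from -0.041 to 0.352, and 21 of 24 sorted libraries correlated best with their own number, a hint from the data only. DESeq2 size factors moved the median of all genes by -0.149 for ESCs against MEFs. The depth limits the rare members, of which *Slc2a4* was at 0 in 13 libraries.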
